A study of Mus musculus with 12 samples.

Results

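Transcripts of 10 genes of cellular oxygen sensing were followed across the 4 treatments: the hypoxia-inducible factor (HIF) subunit genes Hif1a, Epas1 and Arnt, the prolyl hydroxylase genes Egln1, Egln2 and Egln3, the asparaginyl hydroxylase gene Hif1an, the ubiquitin ligase gene Vhl, and the histone demethylase genes Kdm3a and Kdm4b. They were taken by symbol from the 55450 genes listed in the deposited tables, and all 10 were among the 13636 genes that passed the filter on low counts. The cells were CD8 T cells of pmel-1 mice, which carry a transgenic T cell receptor for a melanoma peptide, with the wildtype Ucp2 genotype in every group. All groups were activated in vitro with the hgp100 peptide or with antibodies to CD3 and CD28 (the labels do not say which route a library had) and were then grown in IL-2 at 10 ng/ml for 4 days. The 4 groups of 3 libraries received vehicle (culture media), genipin, genipin+NAC, or NAC. Genipin is a plant-derived compound used as an inhibitor of the mitochondrial carrier Ucp2, and NAC (N-acetylcysteine) is a thiol antioxidant. The labels give no dose, oxygen tension or mouse age, and do not say whether the replicates came from separate mice or cultures, so the p-values below measure only the spread between these libraries.

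HIF is a heterodimer of an alpha subunit (here HIF-1alpha from Hif1a or HIF-2alpha from Epas1) and the constitutive partner encoded by Arnt. When oxygen, iron and 2-oxoglutarate are available, the Egln enzymes hydroxylate prolines of the alpha subunit, the Vhl protein binds the hydroxylated form, and the subunit is ubiquitinated and degraded, while the Hif1an enzyme hydroxylates an asparagine that otherwise recruits co-activators. Egln1, Egln3, Kdm3a and Kdm4b are themselves known HIF target genes, and in T cells HIF-1alpha also rises after receptor stimulation and supports glycolysis. Protein levels and hydroxylation were not measured, and in bulk RNA fewer cells expressing a gene and less RNA per cell cannot be told apart.

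The library totals ran from 20838894 to 31098648 expected counts. All 7 markers of CD8 T cells were abundant, with summed levels of 2640 to 3310 CPM (read counts scaled to one common library total) over the 12 libraries. B cell, neutrophil and fibroblast markers summed to at most 0.552 CPM in any library. Replicate 1 of genipin+NAC stood apart from the other replicates of its group, with a chi-square per degree of freedom of 6.95 and 8.07 against them, while other replicate pairs lay between 2.08 and 2.92. Without that library the call, or lack of one, was kept for all 40 values of the 10 genes in the 4 comparisons that use the group, and the log2 values moved by -0.04 to 0.08.

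Among the HIF subunits, genipin lowered Hif1a and raised Epas1, whereas NAC alone did the opposite. Hif1a (ENSMUSG00000021109.13, chromosome 12, 73901375 to 73947530, mm10) had 494, 471 and 463 CPM with vehicle, 236, 235 and 229 with genipin, 516, 477 and 475 with genipin+NAC, and 688, 720.2 and 719 with NAC. The genipin libraries were the lowest and the NAC libraries the highest, without overlap, and the genipin+NAC libraries overlapped vehicle. In values given from here on as log2 fold change ± standard error (SE), n = 3 libraries per group, Hif1a fell with genipin against vehicle by 1.03 ± 0.03 and rose with NAC by 0.58 ± 0.03 (adjusted p = 4.57e-16 and 4.69e-12). Every adjusted p here comes from the quasi-likelihood F test of edgeR, with p-values corrected by Benjamini and Hochberg across all tested genes. Adding NAC to genipin raised Hif1a by 1.07 ± 0.03 (adjusted p = 8.86e-17). The difference of genipin+NAC from vehicle was 0.04, with a 95% interval of -0.03 to 0.11 on the log2 scale. Exons of Hif1a overlap the antisense gene Gm15283 over 330 bases and Gm49321 over 148 bases, but these had at most 18 and 2 counts in any library.

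Epas1 (ENSMUSG00000024140.10, chromosome 17, 86753700 to 86833410) was the scarcer of the 2 alpha subunit transcripts among the 10 genes. It had 15.5, 17.9 and 17.2 CPM with vehicle, 33.1, 30.1 and 35.7 with genipin, 10.5, 12.7 and 12.4 with genipin+NAC, and 5.29, 4.83 and 6.36 with NAC. The 4 groups did not overlap one another, and the order was the reverse of that of Hif1a at both ends. Epas1 rose with genipin (0.97 ± 0.08, adjusted p = 1.73e-09) and fell with NAC (-1.62 ± 0.11, adjusted p = 2.57e-11), and also fell with genipin+NAC against vehicle (-0.51 ± 0.09, adjusted p = 7.37e-05). On the length-scaled TPM scale that the authors deposited, Epas1 made up 2.76 ± 0.28% (SD, n = 3) of the 2 alpha subunit transcripts with vehicle, 10.2 ± 0.86% with genipin, 1.89 ± 0.27% with genipin+NAC and 0.62 ± 0.085% with NAC. The sum of both alpha transcripts went from 124 ± 4.62 TPM with vehicle to 72.1 ± 0.101 with genipin, 134 ± 7.79 with genipin+NAC and 207 ± 7.32 with NAC, so Hif1a dominated the pool in every library. As TMM-scaled CPM per kilobase the sum with NAC was 145% of the vehicle mean, beside 167% on the TPM scale.

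Epas1 is a gene of endothelium and myeloid cells as well, and some markers of other cells were, like Epas1, highest with genipin and lowest with NAC. Of the 4 endothelial markers only Pecam1, which T cells also express, passed the filter; Cdh5 had no counts, and Kdr and Tek had at most 2 and 5 counts in any library. The endothelial sum ran from 73.3 to 76.3 CPM with genipin, 56.7 to 61.8 with vehicle, 57.0 to 59.1 with genipin+NAC and 34.8 to 37.9 with NAC. Of the 3 mast cell and basophil markers, Cpa3 and Mcpt8 passed and Fcer1a had at most 1 count. The sum was 28.5 to 30.5 CPM with genipin and 13.2 to 15 with vehicle. It was 16.5 to 18.9 with genipin+NAC and 4.00 to 4.87 with NAC. The 2 genes differed, as only Mcpt8 was highest with genipin (mean 15.8 CPM, against 1.33 with genipin+NAC). Cpa3 was highest with genipin+NAC (16.1 CPM, against 13.6 with genipin). Of the 5 macrophage and monocyte markers only Cd14 passed, Csf1r had at most 1 count, and the sums were 3.04 to 3.35 CPM with genipin, 1.34 to 2.00 with vehicle, 2.09 to 2.50 with genipin+NAC and 0.762 to 0.907 with NAC. The 3 natural killer markers, mostly Eomes, which CD8 T cells also express, summed to 121 to 123 CPM with genipin, 67.4 to 73.2 with vehicle, 89.1 to 94.8 with genipin+NAC and 45.0 to 46.0 with NAC. The 4 dendritic cell markers shared no order. Their sum was 29.7 to 32.8 CPM with genipin+NAC and 19.6 to 24.2 with genipin. It was 15.6 to 16.9 with vehicle and 9.90 to 11.4 with NAC. Most of the sum was Itgax (mean 28.9 CPM with genipin+NAC). Flt3 was highest with vehicle (1.45 CPM), Zbtb46 was highest with NAC (3.04), and Xcr1 had at most 3 counts. The 2 CD4 T cell markers, mostly Cd4, ran the other way. They summed to 5.11 to 5.48 CPM with NAC and 2.65 to 3.23 with genipin+NAC. With vehicle the sum was 1.06 to 1.5 CPM, and with genipin 0.193 to 0.625. B cell markers were also highest with NAC, at 0.302 to 0.552 CPM. The part of any of these cells in the Epas1 values was not tested.

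Arnt, the shared beta subunit (ENSMUSG00000015522.18, chromosome 3, 95434388 to 95497240), varied little. It had 44.7, 41.6 and 42.5 CPM with vehicle, 46.0, 44.3 and 48.6 with genipin, 55.4, 54.8 and 54.9 with genipin+NAC, and 52.5, 54.5 and 53.6 with NAC. Both groups with NAC lay above both groups without it. Arnt rose with NAC (0.32 ± 0.04, adjusted p = 2.83e-06) and with genipin+NAC against vehicle (0.36 ± 0.04, adjusted p = 5.93e-07). On the CPM scale genipin and vehicle overlapped, with a small rise of 0.11 ± 0.05 (adjusted p = 0.0376). That call was lost without vehicle replicate 2 or 3 or genipin replicate 1 or 3 (adjusted p = 0.131, 0.0955, 0.0636 and 0.203). It was also lost without the filter on low counts (0.124) and with DESeq2 (0.0564). The rise was larger with offsets for the effective length (0.17, adjusted p = 0.0235), which spanned 11.2% for Arnt across libraries. Without normalization factors it was 0.18 (adjusted p = 0.00201). In deposited TPM the genipin libraries (14.8 to 16.6) lay above those of vehicle (12.5 to 13.8).

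The prolyl hydroxylase genes separated into 2 that moved strongly, Egln3 and Egln1, and 1 that stayed near its vehicle level, Egln2. The promoter sequences of these 3 genes and of Hif1a are shown because the core letters of the hypoxia response element, ACGTG or GCGTG, can be looked for beside these responses. They come from RefSeq on build GRCm38.p6, which has the coordinates of mm10, run 5′ to 3′ on the strand of the gene and end at the annotated RefSeq start. For Egln1 the last 70 bases before that start are left out because GENCODE M21 annotates them as exon, and the Hif1a stretch lies inside the GENCODE gene, which begins further upstream. Of the 2 RefSeq starts of Egln2 the one further upstream is shown. Capitals mark matches to either 5-letter motif on either strand.
Egln3 (chr12:54203875-54204124, minus strand, 250 bases): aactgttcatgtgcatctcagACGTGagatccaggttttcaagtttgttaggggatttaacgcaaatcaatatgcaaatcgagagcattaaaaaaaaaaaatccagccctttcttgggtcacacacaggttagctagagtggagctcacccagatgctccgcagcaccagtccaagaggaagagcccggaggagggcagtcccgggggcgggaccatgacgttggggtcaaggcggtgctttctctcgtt
Egln1 (chr8:124949325-124949504, minus strand, 180 bases): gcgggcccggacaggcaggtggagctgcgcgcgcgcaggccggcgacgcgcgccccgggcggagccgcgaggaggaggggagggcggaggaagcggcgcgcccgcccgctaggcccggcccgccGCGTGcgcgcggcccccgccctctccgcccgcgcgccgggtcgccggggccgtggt
Egln2 (chr7:27166803-27167052, minus strand, 250 bases): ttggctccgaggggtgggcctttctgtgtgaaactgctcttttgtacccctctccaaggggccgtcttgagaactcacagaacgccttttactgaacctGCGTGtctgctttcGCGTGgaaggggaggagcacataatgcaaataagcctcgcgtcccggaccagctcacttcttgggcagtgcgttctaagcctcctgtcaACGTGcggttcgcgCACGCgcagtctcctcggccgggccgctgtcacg
Hif1a (chr12:73907617-73907866, plus strand, 250 bases): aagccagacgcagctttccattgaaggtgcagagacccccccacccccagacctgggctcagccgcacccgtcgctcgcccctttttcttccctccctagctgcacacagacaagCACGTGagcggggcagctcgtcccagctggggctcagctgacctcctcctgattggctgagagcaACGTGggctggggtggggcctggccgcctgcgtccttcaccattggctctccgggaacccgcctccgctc
The 250 bases before the start of Egln3 held 1 ACGTG and no GCGTG, those of Egln1 held 1 of each (the ACGTG lies in the part not printed), those of Egln2 held 1 ACGTG and 3 GCGTG, and those of Hif1a held 3 ACGTG, of which an overlapping pair forms the palindrome CACGTG. Of 32851 windows of this length in the RefSeq table, 16.6% held ACGTG, 28.2% held GCGTG and 38.6% held either. The table held windows for 8 of the 10 genes, and none was matched for Epas1 and Kdm4b. Of the genes not printed, Arnt had 1 GCGTG, and Vhl and Hif1an had no match. Kdm3a had 1 GCGTG in 1 window and no match in its others. The window of the other Egln2 start held 1 GCGTG and no ACGTG. A match in this window is a description of its letters only, and its relation to the responses was not tested.

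Egln3, the prolyl hydroxylase most strongly induced by hypoxia in many cells (ENSMUSG00000035105.5, chromosome 12, 54178981 to 54203860, minus strand), gave the widest range of all 10 genes. It had 140.2, 146 and 147 CPM with vehicle, 43.9, 43.8 and 48.6 with genipin, 447, 461 and 457 with genipin+NAC, and 167, 163 and 166 with NAC. All 4 groups were apart, and the genipin+NAC libraries stood far above the others although genipin alone gave the lowest values. Egln3 fell with genipin (-1.67 ± 0.04, adjusted p = 7.15e-19), rose slightly with NAC (0.20 ± 0.03, adjusted p = 5.16e-05) and rose 3.15-fold with genipin+NAC against vehicle (1.66 ± 0.03, adjusted p = 1.44e-19). Between genipin and genipin+NAC the difference was 10.0-fold (3.32 ± 0.04, adjusted p = 4.73e-24).

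Egln1, which encodes the main HIF prolyl hydroxylase in most cells (ENSMUSG00000031987.6, chromosome 8, 124908587 to 124949324, minus strand), had 117, 117 and 117 CPM with vehicle, 91.4, 88.2 and 83.8 with genipin, 233, 238 and 233 with genipin+NAC, and 87.7, 83.1 and 86.3 with NAC. Each compound alone lowered it, the 2 single-compound groups overlapped, and the combination lay above every other library. The fall was 0.41 ± 0.03 on the log2 scale with genipin (adjusted p = 1.53e-09) and 0.45 ± 0.04 with NAC (adjusted p = 4.73e-10), whereas genipin+NAC raised Egln1 2.01-fold over vehicle (1.01 ± 0.03, adjusted p = 4.17e-16).

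Egln2, the third prolyl hydroxylase gene (ENSMUSG00000058709.11, chromosome 7, 27158658 to 27166802, minus strand), had 38.9, 37.7 and 38.1 CPM with vehicle, 42.8, 42.2 and 42.6 with genipin, 35.9, 40.5 and 40.4 with genipin+NAC, and 39.8, 35.4 and 39.7 with NAC. On the CPM scale only the genipin libraries stood clear of the vehicle libraries, and by little (0.15 ± 0.06, adjusted p = 0.0222). That call was lost without vehicle replicate 2 or 3 or genipin replicate 1 (adjusted p = 0.0596, 0.0547 and 0.0558). The 95% interval of the difference from vehicle was -0.12 to 0.12 with NAC and -0.09 to 0.14 with genipin+NAC. With offsets for the effective length, which spanned 14.7% for this gene across libraries, genipin+NAC was higher than vehicle by 0.16 (adjusted p = 0.0349). In deposited TPM all 3 treated groups lay above vehicle (21.9 to 23.2 TPM), at 27.7 to 28.0 with genipin, 25.03 to 27.54 with genipin+NAC and 25.04 to 27.33 with NAC.

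Per length, the prolyl hydroxylase transcripts summed to 123 ± 0.709 TPM (SD, n = 3) with vehicle, 80.5 ± 0.666 with genipin, 314 ± 4.58 with genipin+NAC and 142 ± 3.33 with NAC. Deposited TPM carry no correction for library composition, and the order of vehicle and NAC rests on that scale. As TMM-scaled CPM per kilobase of effective length, a scale chosen after seeing the data, the sum was 115 ± 1.02 with vehicle and 115 ± 2.64 with NAC, which overlapped, against 68.3 ± 0.595 with genipin and 280.0 ± 4.91 with genipin+NAC, which stood apart. Egln3 made up 51.6 ± 0.873% of this sum with vehicle and 27.3 ± 1.54% with genipin, where it was the scarcest of the 3. With genipin+NAC its share was 66.8 ± 0.246%, and with NAC 59.1 ± 0.586%. The share of Egln2 was 18.2 ± 0.677%, 34.5 ± 0.28%, 8.31 ± 0.316% and 18.7 ± 0.482% in the order vehicle, genipin, genipin+NAC and NAC. The stacked TPM values show the make-up of the hydroxylase and subunit pools in each library.

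**Figure D1:**
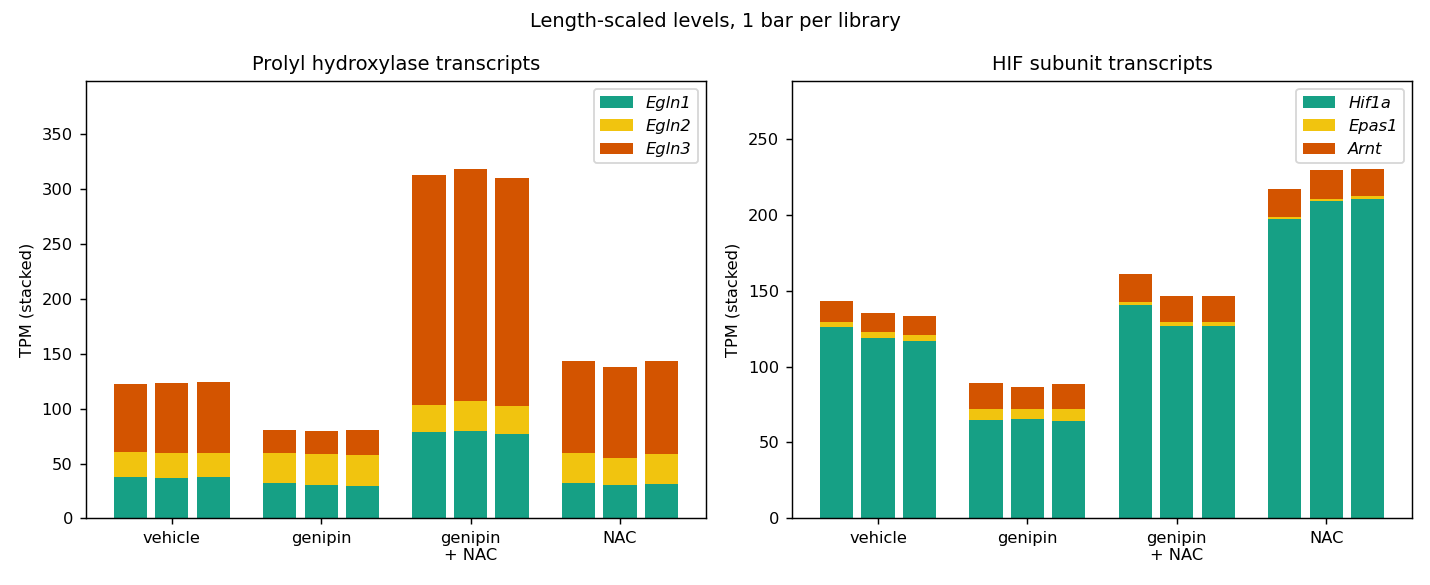
Deposited TPM (transcript abundance scaled by length and library total, vertical axis) of Egln1, Egln2 and Egln3 (left) and of Hif1a, Epas1 and Arnt (right), stacked, with 1 bar for each of the 3 libraries of every group. The hydroxylase sum lies near 314 TPM with genipin+NAC against 80.5 with genipin, and the HIF subunit bars are tallest with NAC, where Hif1a averages 206 TPM; the step from vehicle to NAC in the hydroxylase sum is not seen on the TMM scale.

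Vhl, the substrate receptor that binds hydroxylated HIF alpha (ENSMUSG00000033933.13, chromosome 6, 113623959 to 113631633), had 33.7, 33.6 and 35.4 CPM with vehicle, 33.1, 35.0 and 34.0 with genipin, 42.1, 39.4 and 43.7 with genipin+NAC, and 28.1, 30.7 and 28.7 with NAC. The genipin+NAC libraries were the highest and the NAC libraries the lowest. Vhl rose with genipin+NAC against vehicle (0.29 ± 0.05, adjusted p = 0.00013). It was lower with NAC (-0.23 ± 0.06, adjusted p = 0.00139), a call lost without normalization factors (adjusted p = 0.0924) and with offsets for the effective length (0.0623), which spanned 21.8% for Vhl. With genipin the difference was -0.01, with a 95% interval of -0.13 to 0.11 and adjusted p = 0.887. With offsets for the effective length this difference was -0.16 (adjusted p = 0.154), which lies outside that interval.

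Hif1an, the asparaginyl hydroxylase that restrains HIF transactivation (ENSMUSG00000036450.4, chromosome 19, 44562850 to 44576274), was higher than vehicle in all 3 treated groups. It had 41.2, 41.6 and 41.5 CPM with vehicle, 56.5, 58.9 and 57.4 with genipin, 57.0, 55.6 and 55.0 with genipin+NAC, and 45.2, 48.4 and 45.5 with NAC. Both groups with genipin were the highest and overlapped each other. Hif1an rose with genipin (0.48 ± 0.04, adjusted p = 2.99e-09), with genipin+NAC (0.43 ± 0.04, adjusted p = 1.7e-08) and, by less, with NAC (0.16 ± 0.04, adjusted p = 0.00258).

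Kdm3a and Kdm4b encode JmjC demethylases that remove methyl groups from a lysine of histone H3 and need oxygen, iron and 2-oxoglutarate as the Egln enzymes do. Kdm3a (ENSMUSG00000053470.13, chromosome 6, 71588972 to 71632990, minus strand) had 169, 165 and 168 CPM with vehicle, 143, 139 and 138 with genipin, 237, 225 and 230.2 with genipin+NAC, and 177, 174 and 174 with NAC. The genipin libraries were lowest and the genipin+NAC libraries highest, without overlap. Kdm3a fell with genipin (-0.26 ± 0.03, adjusted p = 1.71e-07) and rose with genipin+NAC against vehicle (0.46 ± 0.03, adjusted p = 2.04e-11). The NAC libraries lay just above vehicle (0.06 ± 0.03, adjusted p = 0.0683). That difference passed the threshold without normalization factors, with effective length offsets, with only those groups in the fit and without genipin+NAC replicate 1 (log2 0.18, 0.16, 0.06 and 0.07).

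Kdm4b (ENSMUSG00000024201.12, chromosome 17, 56326062 to 56402870) had 39.0, 39.7 and 38.4 CPM with vehicle, 25.4, 24.5 and 25.6 with genipin, 62.5, 69.7 and 72.5 with genipin+NAC, and 36.2, 28.6 and 29.7 with NAC. It was lowest with genipin and highest with genipin+NAC, and the NAC libraries lay between genipin and vehicle. Kdm4b fell with genipin (-0.63 ± 0.07, adjusted p = 1.76e-07) and with NAC (-0.31 ± 0.07, adjusted p = 0.000716), and rose with genipin+NAC against vehicle (0.81 ± 0.07, adjusted p = 1.34e-09). The plot of counts by library shows all 10 genes on their own scales.

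**Figure D2:**
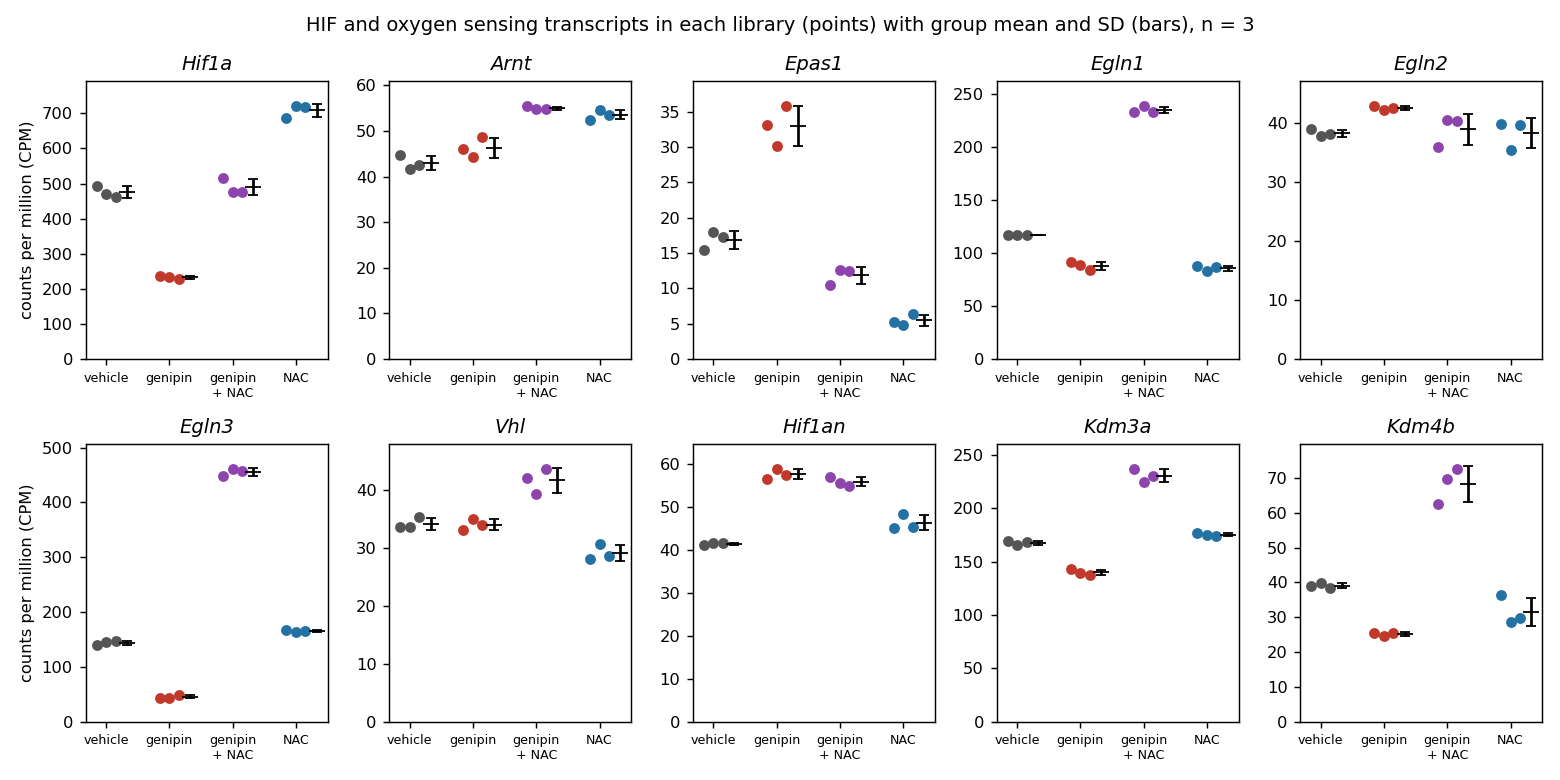
CPM (vertical axis, starting at 0 on a scale of its own for each gene) in each of the 3 libraries of the 4 groups, with the group mean and SD as bars. Egln3, Egln1, Kdm3a, Kdm4b, Vhl and, by little, Arnt are each highest with genipin+NAC and differ in the order of the other groups. Epas1 is highest with genipin (30.1 to 35.7 CPM) and Hif1a is highest with NAC (688 to 720.2 CPM).

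Read over all 10 genes, genipin against vehicle gave 4 higher and 5 lower calls at adjusted p under 0.05, a share to be set beside the 61.0% of all tested genes called in that comparison (29.9% higher and 31.0% lower). In NAC against vehicle 4 were higher and 4 lower (59.7% of all tested genes called), and without normalization factors 5 were higher and 3 lower, where the split over all genes moved from 4041 higher and 4093 lower to 5615 and 2700. In genipin+NAC against vehicle 7 were higher (28.5% of all genes higher) and 1, Epas1, was lower (28.9% lower), from 57.4% called in all. In each of these 3 comparisons most of the tested genes were called. When the call also had to exceed 2-fold, genipin left Egln3 and Hif1a among the lower genes (6.69% of all genes) and 0 of the 10 among the higher (3.11%). NAC left Epas1 among the lower (3.88%) and 0 among the higher (6.04%), and genipin+NAC left Egln3 and Egln1 among the higher (5.38%) and 0 among the lower (2.57%). Values near this threshold crossed it with the setting: without normalization factors the genipin value of Hif1a was -0.96 and that of Epas1 1.03. Epas1 also passed 2-fold without vehicle replicate 2 (1.01) or genipin replicate 2 (1.03), and Egln1 with genipin+NAC fell short without the filter on low counts (0.9986) or without genipin+NAC replicate 2 (0.9977). The 3 libraries of the treated group did not overlap those of vehicle for 8 genes with genipin, 9 with NAC and 8 with genipin+NAC, beside 66.7%, 65.9% and 60.7% of all tested genes. The 3 comparisons share the vehicle libraries. The median of the 10 log2 values was -0.14 with genipin, 0.03 with NAC and 0.395 with genipin+NAC, beside -0.0079, -0.0053 and 0.0048 over all tested genes.

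Adding NAC to genipin-treated cells raised 7 of the 10 genes and lowered 1 (35.0% and 34.3% of all tested genes, 69.3% called in all). Besides Egln3 and Hif1a, Egln1 rose by 1.42 ± 0.03 (adjusted p = 4.79e-19), Kdm4b by 1.44 ± 0.07 (adjusted p = 9.18e-14) and Kdm3a by 0.72 ± 0.03 (adjusted p = 5.45e-15), while Epas1 fell by 1.48 ± 0.09 (adjusted p = 1.99e-12). Changes of at least 2-fold were found for 4 genes higher, against 10.5% of all genes, and 1 lower, against 4.08%. The groups did not overlap for 9 of the 10 genes, beside 70.3% of all genes. The genes without a call were Hif1an (-0.04, 95% interval -0.13 to 0.04) and Egln2 (-0.13 ± 0.06, adjusted p = 0.0505), whose difference was called with RLE size factors, without normalization factors, with DESeq2, and without genipin+NAC replicate 2 or 3 or NAC replicate 2 (adjusted p between 0.0204 and 0.0466).

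Within cells that had NAC, genipin raised 7 of the 10 genes and lowered 1 (26.6% and 26.5% of all tested genes, 53.1% called in all; without normalization factors the split over all genes moved from 3632 higher and 3607 lower to 2650 and 4733, and that of the 10 genes stayed at 7 and 1). Egln3 rose by 1.46 ± 0.03 (adjusted p = 6.63e-19), Egln1 by 1.45 ± 0.03 (adjusted p = 8.64e-19), Kdm4b by 1.12 ± 0.07 (adjusted p = 1.09e-11) and Epas1 by 1.11 ± 0.11 (adjusted p = 2.6e-08), and these 4 changes of at least 2-fold stand beside 3.43% of all genes, with 0 of the 10 and 2.47% of all genes lower by 2-fold. The groups did not overlap for 9 of the 10 genes, beside 56.7% of all genes. Hif1a was the one that fell (-0.54 ± 0.03, adjusted p = 1.74e-11).

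Whether the genipin effect differed between cells with and without NAC was tested as an interaction, taken as the log2 effect in NAC-treated cells less the log2 effect in the others. It was positive for 6 genes and negative for 1 (27.4% and 24.0% of all tested genes, 51.4% called in all), and 3 positive values and 0 negative ones exceeded 2-fold (6.72% and 3.14% of all genes). For Egln3, Egln1, Kdm4b and Kdm3a genipin lowered the transcript without NAC and raised it with NAC, and the interaction was 3.13 ± 0.05 (adjusted p = 3.34e-21), 1.87 ± 0.05 (6.9e-18), 1.75 ± 0.10 (3.2e-12) and 0.66 ± 0.04 (2.21e-11). For Hif1a genipin lowered the transcript in both settings, by less with NAC, with an interaction of 0.49 ± 0.05 (adjusted p = 2.12e-08). For Vhl it was 0.53 ± 0.08 (adjusted p = 8.26e-06), and for Hif1an -0.21 ± 0.06 (adjusted p = 0.00572). For Epas1 genipin gave a rise in both settings, and the 95% interval of the interaction was -0.15 to 0.43. For Arnt and Egln2 it was -0.07 ± 0.06 and -0.13 ± 0.08 without a call, and without normalization factors both were called (-0.22 and -0.27, adjusted p = 0.00614 and 0.00617). Over all tested genes the calls on the interaction were 3733 higher and 3275 lower, and without normalization factors 2618 and 4806.

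**Figure D3:**
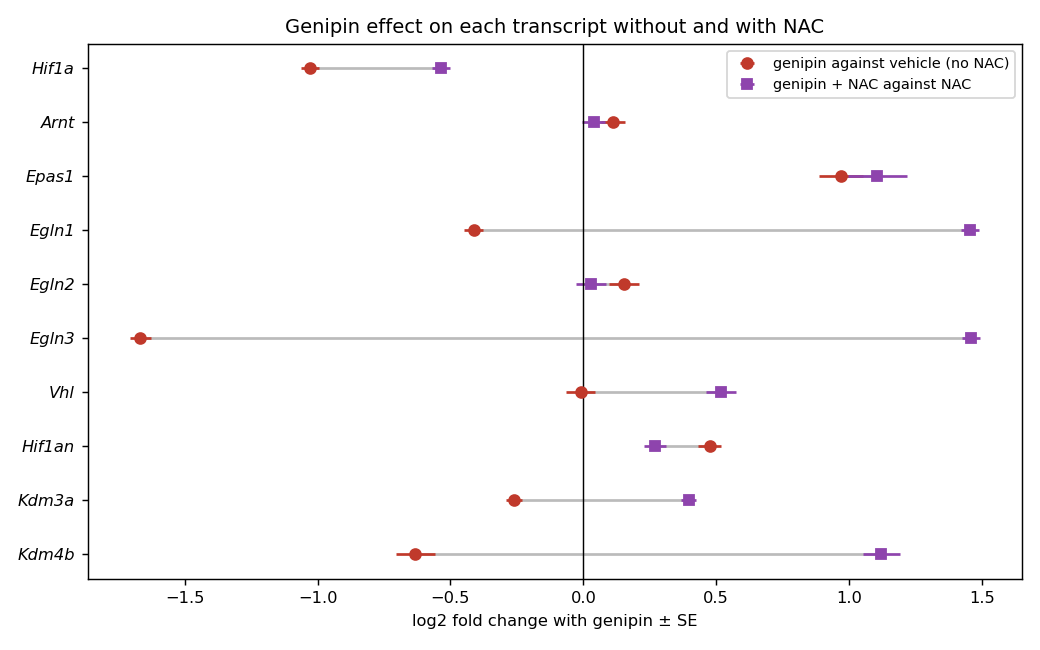
Log2 fold change ± SE with genipin for each of the 10 genes, against vehicle in cells without NAC (circles) and against NAC in cells with NAC (squares), n = 3 libraries per group. The joined points of Egln3 run from -1.67 to 1.46 and those of Egln1 from -0.41 to 1.45, across 0, while both points of Epas1 lie near 1 and both of Hif1a lie below 0.

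Genes known to be induced by HIF were lower with genipin and higher with genipin+NAC. Of 20 such genes, listed with earlier results of these data known, 19 were tested (Adm had at most 5 counts). The counts below therefore describe this list and are no independent test of it. With genipin 19 of 19 fell (31.0% of all genes), with a median of -0.98 beside -0.0079 over all tested genes. The smallest p-values were those of the glycolytic kinase gene Pgk1 (-1.93 ± 0.02), the mitophagy receptor Bnip3 (-1.71 ± 0.04), the stress-induced mTOR inhibitor Ddit4 (-1.51 ± 0.04) and the angiogenic factor Vegfa (-2.45 ± 0.06). With NAC the list was divided, 8 higher and 8 lower of 19 (29.6% and 30.0% of all genes; 11 and 6 without normalization factors), with P4ha2, a collagen prolyl hydroxylase, at 1.496 ± 0.07, Ddit4 at 0.73 ± 0.03 and Bnip3 at -0.84 ± 0.04. With genipin+NAC against vehicle 18 of 19 rose and none fell (28.5% higher over all genes), with a median of 0.87. The interaction was positive in 19 of 19 (27.4% of all genes), with a median of 1.77 beside 0.032 over all tested genes, and these directions held with RLE size factors and without normalization factors. Within cells that had NAC, genipin raised 16 of the 19 and lowered 2 (26.6% and 26.5% of all genes). With RLE size factors or without normalization factors these counts were 15 and 2. Ddit4 was among the lower genes there (-0.34 ± 0.03), and P4ha2 had no call (-0.04 ± 0.06, adjusted p = 0.651).

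The other JmjC demethylases did not share one pattern. Of 15 tested genes 10 rose and 4 fell with genipin (29.9% and 31.0% of all genes), with Phf2 (0.41 ± 0.04), Phf8 (0.42 ± 0.05) and Kdm2a (0.29 ± 0.04) higher and Kdm5b lower (-0.56 ± 0.04). With NAC 10 rose and 1 fell (29.6% and 30.0%; 14 and 0 without normalization factors), including Kdm3b (0.64 ± 0.03), Kdm7a (0.63 ± 0.06) and Kdm5b (0.48 ± 0.04). With genipin+NAC against vehicle 12 rose and none fell (28.5% and 28.9%). Kdm5b, which removes methyl groups from another lysine of histone H3, was the member with the largest interaction (1.35 ± 0.06, adjusted p = 1.29e-14), from 48.7 CPM with vehicle and 33.0 with genipin to 117 with genipin+NAC. Over the list the interaction was positive for 4 and negative for 5 (27.4% and 24.0% of all genes), or 2 and 6 without normalization factors.

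Partners of HIF and the machinery of its turnover were divided in direction. Of 10 partners and co-regulators 4 rose and 4 fell with genipin (29.9% and 31.0% of all genes), with the co-activator acetyltransferases Crebbp (0.48 ± 0.05) and Ep300 (0.30 ± 0.04) higher and the chaperone Hsp90ab1 (-0.42 ± 0.02) and the scaffold Rack1 (-0.36 ± 0.03) lower. With NAC the split was 4 and 4 as well (29.6% and 30.0% of all genes), or 6 and 4 without normalization factors: Cited2, which competes with HIF for co-activators, fell by 0.86 ± 0.06, Hsp90ab1 fell by 0.31 ± 0.02, and the co-activator Ncoa1 rose by 0.43 ± 0.06. Arnt2 and Cited4 had means of at most 2.10 and 1.07 CPM in any group, so the size of their changes is uncertain. Of the 15 genes of the Vhl ligase and HIF turnover 14 were tested, and 5 rose and 5 fell with genipin, beside the same 29.9% and 31.0% of all genes. The lectin Os9 rose (0.34 ± 0.03) and the deubiquitinase Usp33 (-0.53 ± 0.07), the scaffold Cul2 (-0.38 ± 0.05) and the RING subunit Rbx1 (-0.25 ± 0.04) of the ligase fell. With NAC 4 rose and 6 fell (29.6% and 30.0% of all genes; 5 and 5 without normalization factors), with Fkbp8, a peptidyl-prolyl isomerase that binds the Egln1 protein, at -0.67 ± 0.04, Rbx1 at -0.43 ± 0.04 and Os9 at -0.26 ± 0.03. Against vehicle with genipin+NAC, 6 partners rose and 3 fell, and 5 turnover genes rose and 7 fell, beside 28.5% and 28.9% of all genes.

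**Figure D4:**
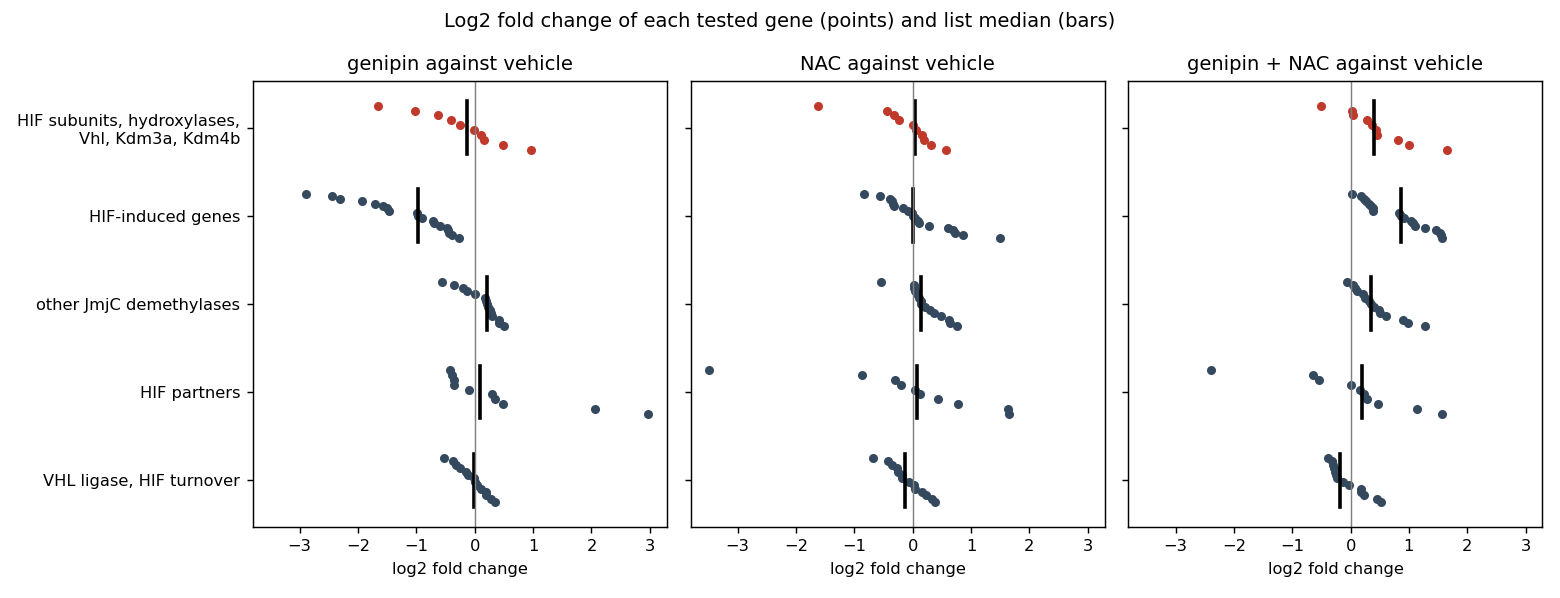
Log2 fold change against vehicle (horizontal axis) of each tested gene as a point, for the 10 genes described here and the 4 related lists, with the list median as a bar, in the 3 treated groups. The HIF-induced genes all lie below 0 with genipin (median -0.98) and above 0 with genipin+NAC (median 0.87), and the other lists lie on both sides of 0 or near it.

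On the length-scaled TPM scale Hif1a was the most abundant of the 10 transcripts with vehicle (121 ± 4.83 TPM, SD, n = 3), genipin (64.8 ± 0.595) and NAC (206 ± 7.27), but with genipin+NAC Egln3 (209 ± 2.29) exceeded it (131 ± 8.03). Epas1 was the least abundant in every group, between 1.28 ± 0.19 TPM with NAC and 7.34 ± 0.625 with genipin. With vehicle the order from high to low was Hif1a, Egln3, Kdm3a, Egln1, Egln2, Vhl, Kdm4b, Arnt, Hif1an and Epas1, in which only Kdm4b (12.98 ± 0.249 TPM) and Arnt (12.96 ± 0.696) overlapped as neighbours. With genipin Egln3 dropped from the second to the fifth place (22.0 ± 1.31 TPM), below Egln1 (30.7 ± 1.34) and Egln2 (27.8 ± 0.185), and Arnt and Vhl overlapped. With genipin+NAC Egln1 overlapped Kdm3a, Kdm4b overlapped Vhl, and Vhl overlapped Arnt, and with NAC no neighbours overlapped.

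For the 3 genes with the widest range over the 4 group means of log2 CPM, the genes of most similar pattern were sought among 9478 others by the root mean square (RMS) difference of the centred group means. These 9478 were tested genes with a mean of at least 5 CPM, without pseudogenes and genes with Gm-numbered or Rik symbols. Closest to Egln3 (range 3.32) was Ero1l, an oxidase of disulfide bond formation, at an RMS difference of 0.118, followed by Arrb1 (0.256) and the integrin chain Itgam (0.31). Ero1l went from 592 CPM with vehicle to 213 with genipin, 1735 with genipin+NAC and 640.2 with NAC. Among the genes close to Epas1 (range 2.57) were Cep290 (0.103) and Plxdc2 (0.11). Closest to Hif1a (range 1.60) were Nlgn2 (0.0419), the actin-binding Pfn2 (0.0594) and Bcl9 (0.0612). These are descriptions over 4 group means. Ero1l is also on the list of HIF-induced genes.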

How the data were processed

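RNA of 12 libraries (4 groups of 3) was sequenced from a stranded total RNA kit with ribosomal RNA removal, per the labels' protocols. Per the submitters' processing notes, the tools included RSEM 1.3.1, STAR 2.7.0f, cutadapt 1.18 and bcl2fastq, and the build was mm10; whether counting used strand is not given in the sources used here. The authors deposited, per the file headers, expected counts, TPM, FPKM and effective lengths for 55450 genes, whose IDs and symbols all match GENCODE M21. FPKM, deposited beside TPM, was not used.

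Expected counts were rounded (of the 10 genes, by at most 0.06 counts, for Hif1a), filtered with filterByExpr and scaled by TMM factors of 0.961 to 1.05 in edgeR 4.0.16 (R 4.3.3). CPM use these scaled totals, with 3 counts equal to 0.098 to 0.138 CPM. A quasi-likelihood model with 1 mean per group over 12 libraries tested 6 contrasts (8 residual and 12.6 prior degrees of freedom), adjusted by Benjamini and Hochberg and called under 0.05. SE is the absolute log2 value over the square root of F. Deposited TPM served for levels between genes and for pools, which were also computed as TMM-scaled CPM per kilobase, an alternative chosen after seeing the data. The test was tried on simulated data, where known changes in weakly expressed genes were recovered incompletely. The first criterion for passing failed for the interaction. After that was seen, it was replaced by one limited to more strongly expressed genes. Epas1 with NAC, at a mean of 5.5 CPM, lay near the lower limit of those genes. All 10 genes are named; of each list, the 4 genes with smallest p for genipin and 3 for NAC are named, with Arnt2, Cited4 and the untested Adm added after their values were seen. For the 3 genes of widest range, the 3 genes of closest pattern are named, except for an item that is not reported here. The genes and lists were chosen with earlier results of these data known. After each group's mean log2 CPM was subtracted gene by gene, same-numbered replicates of different groups correlated between -0.0751 and 0.0437 over 18 pairs. No pairing was therefore modelled. Counts were recomputed with RLE factors, no factors, DESeq2 1.42.0, no filter, length offsets, only the groups compared, a 2-fold threshold, a replicate block and each library left out.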

Additional observations from a re-analysis of the deposited data

Results flagged for a closer look

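For 7 of the 10 genes the genipin effect differed between cells with and without NAC by the interaction test of edgeR (n = 3 libraries per group). The log2 interaction was 3.13 for Egln3, 1.87 for Egln1, 1.75 for Kdm4b, 0.66 for Kdm3a, 0.53 for Vhl, 0.49 for Hif1a and -0.21 for Hif1an. The direction of the genipin effect changed for Egln3, Egln1, Kdm4b and Kdm3a, did not change for Hif1a and Hif1an, and for Vhl a rise with NAC stood beside no call without it. Of all tested genes 51.4% had a call on this interaction.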

How the results depend on the processing

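Of 1130 single-gene values under alternatives, 1090 kept their direction and their side of the threshold, 11 were weaker, 13 stronger and 16 reversed. Of the 1090, 698 came from fits with 1 library left out, which share most libraries with the main fit. Without normalization factors 51 values stayed the same, 1 was weaker, 4 were stronger and 4 reversed. With a change of at least 2-fold required, the genes called fell to 2 (genipin against vehicle), 1 (NAC against vehicle), 2 (genipin+NAC against vehicle), 5 (genipin+NAC against genipin), 4 (genipin+NAC against NAC) and 3 (interaction), and over all tested genes to 1336, 1352, 1083, 1995, 805 and 1345 in the same order. Under the other alternatives the counts of the 10 genes called ranged from 7 to 9. The replicate block left the 6 counts at 9, 8, 8, 8, 8 and 7 and changed no call on the 10 genes. With group means subtracted, the best correlate of a library in another group carried its own number in 4 of 12 cases. The values that reversed had no call in either fit. Without normalization factors these were Vhl with genipin against vehicle (0.0548), Arnt and Egln2 with genipin+NAC against NAC (-0.0406 and -0.0519) and the interaction of Epas1 (-0.00655), and without the filter Egln2 with NAC (-0.0129). Leaving out 1 library gave Egln2 values of -0.0285 to 0.0549 with NAC, -0.00169 to 0.082 with genipin+NAC against vehicle and -0.0282 to 0.081 with genipin+NAC against NAC, and Vhl values of -0.0291 to 0.0182 with genipin. Leaving out the normalization factors shifted the median gene by 0.12 with NAC and by -0.144 for the interaction. On the TMM scale per kilobase, added after seeing the data, the hydroxylase sum with NAC was 100.2% of vehicle in place of 115% in TPM. The interaction uses all 4 groups, so it has no fit with only the groups compared. The cause of these changes was not tested. Depth limits Epas1 most, whose lowest library had 115 counts.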
